A study of Mus musculus with 10 samples.

Results

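The baseline transcriptome of neonatal lung endothelium was read from the 5 control arrays of a 10-array series, those of mice without Cre recombinase. Genes were ranked by their mean background-corrected level over these 5 arrays, among genes with a probe whose detection p-value was below 0.05 on every one of them. Of 21946 genes named on the array, 9032 (41.2%) met that rule, 7562 (34.5%) were detected without any 1 probe being so on all 5 arrays, and 5352 (24.4%) had no probe detected on any of the 5 and are called silent below. Detection here is a property of a probe on this array, and a silent gene is one whose probes were not above background.

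RNA came from lung endothelial cells that had been sorted by FACS out of pups of the C57/Bl6 strain at postnatal day 6, and each sample was hybridised to 1 Illumina mouse beadchip. Evi-WT samples (n = 3) were Evifl/fl mice without Cdh5CreERT2, and Rspo3-WT samples (n = 2) were Rspo3fl/fl mice without Cdh5CreERT2. Evi, also named Wls, carries Wnt proteins to the cell surface for secretion, and Rspo3 is a secreted amplifier of Wnt signalling. The 5 animals or pools therefore all carried floxed alleles in 2 separate lines, and the sources used here do not say whether they received tamoxifen, which markers were sorted on, or whether a sample was 1 animal. The share of probes detected was 47.5%, 47.0% and 48.6% in Evi-WT and 51.1% and 49.8% in Rspo3-WT, so the lines did not overlap. Median intensities were 98.9 to 106.8 units. Pearson's r across the 9032 genes detected on all 5 arrays, given as a description, was 0.952 to 0.967 within a line (4 pairs) and 0.949 to 0.955 between lines (6 pairs).

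Endothelial cells form the inner lining of every vessel, and in the lung most of them belong to the capillary net around the air spaces. That net holds 2 kinds of cell: general capillary cells, which renew the net, and aerocytes, large thin cells specialised for gas exchange. Vascular endothelial growth factor (VEGF) and its receptors, the angiopoietin receptor Tek, Notch, bone morphogenetic protein (BMP) and Wnt signals pattern this lining as it grows after birth.

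The defining endothelial markers were detected on all 5 arrays. Cdh5, the adhesion protein of endothelial junctions, had log2 levels of 9.08, 9.42 and 9.0 in Evi-WT and 9.30 and 9.55 in Rspo3-WT. The platelet-endothelial adhesion molecule Pecam1 had 9.12, 9.56 and 9.34 in Evi-WT and 9.77 and 9.85 in Rspo3-WT. Tek had 8.58, 8.69 and 8.72 in Evi-WT and 8.68 and 8.64 in Rspo3-WT, and was nearly flat with an SD of 0.05 over the 5 arrays. Kdr, the main VEGF receptor, had 7.54, 7.53 and 7.86 in Evi-WT and 8.09 and 8.26 in Rspo3-WT, so that the lines did not overlap, as in 25.9% of all genes tested between them, and its difference did not pass the test described below. All 4 markers stood among the upper levels of the 9032 genes, at ranks 216 (Pecam1), 313 (Cdh5), 616 (Tek) and 1249 (Kdr). The rank of Kdr is that of the brighter of its 2 probes, and the other averaged 4.57, near background. A rank orders the brightness of probes, which differ in how well they bind, and so is not an order of transcript abundance.

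**Figure D1:**
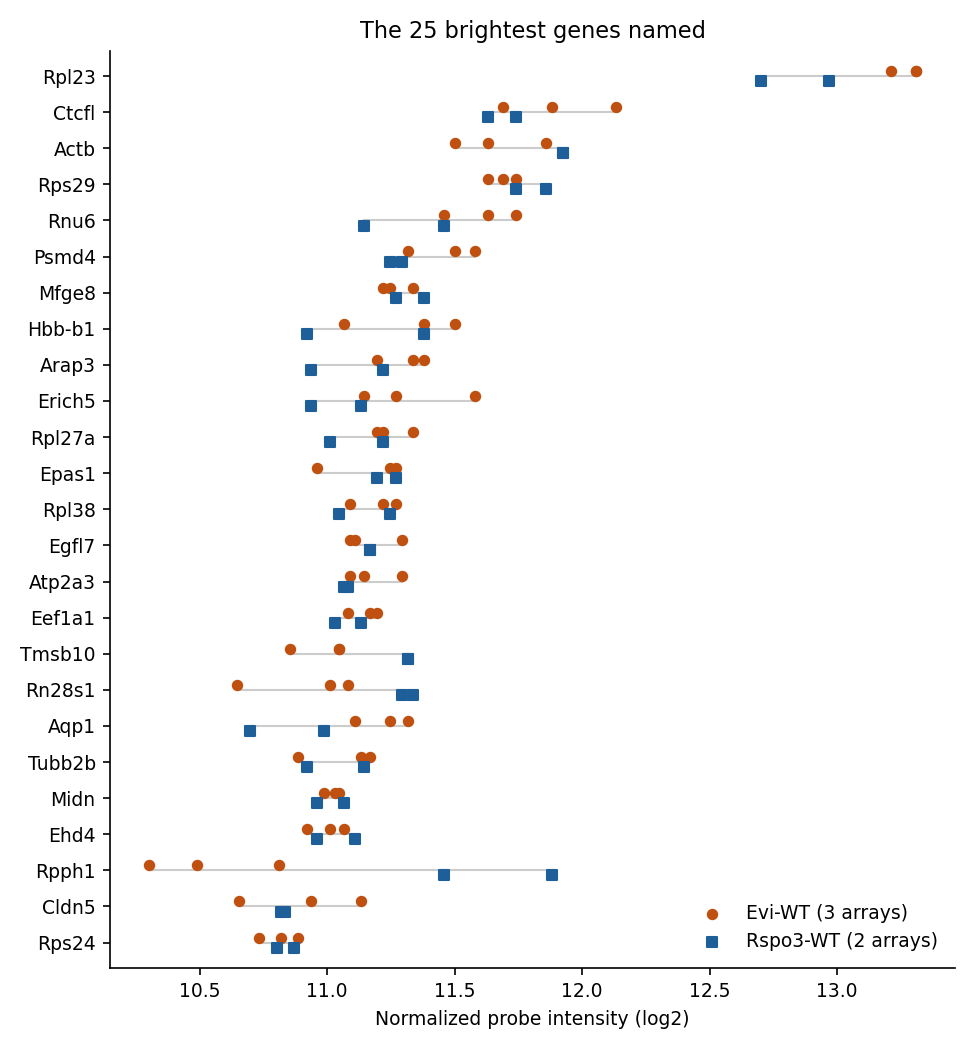
Levels of the 25 brightest genes (log2 normalized probe intensity, x axis) on each Evi-WT array (circles, 3) and Rspo3-WT array (squares, 2), with a grey line from the lowest to the highest array. Rpl23 stands apart at a mean of 13.10, and Rpph1 has both Rspo3-WT arrays above all 3 Evi-WT arrays.

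The top of the ranking mixed housekeeping genes with a small set of endothelial ones. Among the 25 brightest genes 4 encoded cytosolic ribosomal proteins, and among the 100 brightest 14 did. The pan-endothelial list gave 2 of the 25 and 3 of the 100 brightest. Rpl23, a protein of the large ribosomal subunit, was first with 13.31, 13.21 and 13.31 in Evi-WT and 12.70 and 12.97 in Rspo3-WT. Rps29, Rpl27a, Rpl38 and Rps24, further ribosomal proteins, averaged 11.73, 11.20, 11.17 and 10.82. Of 60 cytosolic ribosomal protein genes measured, 54 were detected on all 5 arrays, against 41.2% of all genes, with a median level of 8.88, against 5.92 over all genes detected on all 5.

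The other bright genes had varied functions. Actb, cytoplasmic actin, had 11.63, 11.50 and 11.86 in Evi-WT and 11.93 and 11.93 in Rspo3-WT. The actin-binding peptide gene Tmsb10 (mean 11.12 ± 0.20, SD, n = 5, as for every level below), the elongation factor Eef1a1 (11.12 ± 0.07) and the tubulin gene Tubb2b (11.05 ± 0.13) were in the same range, and so was Psmd4 (11.39 ± 0.15), a ubiquitin receptor of the proteasome. The other named genes there were Atp2a3, a calcium pump of the endoplasmic reticulum (11.13 ± 0.09), Ehd4, an endocytosis protein (11.01 ± 0.08), Midn (11.02 ± 0.04) and Erich5 (11.21 ± 0.24). Ctcfl, known as the germ-line relative of the chromatin protein CTCF, had rank 2 with 12.13, 11.88 and 11.69 in Evi-WT and 11.74 and 11.63 in Rspo3-WT. It rests on 1 probe.

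Non-coding RNAs of the cell's basic machinery were bright as well. Rnu6, the U6 RNA of the spliceosome, averaged 11.49 ± 0.23 and Rn28s1, the large ribosomal RNA, 11.07 ± 0.28. Rpph1, the RNA of ribonuclease P, had 10.81, 10.30 and 10.49 in Evi-WT and 11.88 and 11.46 in Rspo3-WT, so its lines did not overlap.

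Genes known from vessels were also among the 25 brightest. Epas1, the hypoxia-inducible transcription factor HIF-2 alpha, ranked 12th with 11.27, 11.24 and 10.96 in Evi-WT and 11.27 and 11.20 in Rspo3-WT. Egfl7, a matrix protein secreted by endothelium, ranked 14th with 11.11, 11.29 and 11.09 in Evi-WT and 11.17 and 11.17 in Rspo3-WT, an SD of 0.08. Cldn5, the tight-junction claudin of vessels, had 10.94, 11.13 and 10.65 in Evi-WT and 10.82 and 10.83 in Rspo3-WT. The water channel Aqp1, carried by many capillaries, had 11.32, 11.11 and 11.24 in Evi-WT and 10.70 and 10.99 in Rspo3-WT. Arap3, a regulator of small GTPases that acts in vessel growth, averaged 11.21 ± 0.17, and Mfge8, a secreted bridge to integrins, 11.29 ± 0.07. Hbb-b1, a beta-globin chain of red cells, ranked 8th with 11.06, 11.38 and 11.50 in Evi-WT and 10.92 and 11.38 in Rspo3-WT, and its partner Hba-a1 averaged 10.00 ± 0.33.

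A gene was represented by its brightest probe, and probes of 1 gene often disagreed. Of 4955 genes with several probes that were detected on all 5 arrays, 1424 had a probe more than 2 log2 units dimmer. The lowest probe of Rpl23 averaged 4.17, that of Egfl7 4.13, that of Erich5 4.36 and that of Tubb2b 4.15, all near background, while every probe of Actb averaged at least 10.40. When a gene was given the mean of all its probes, 62 of the 100 brightest genes were shared with the ranking above.

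Promoter sequence was set side by side for ribosomal protein genes and olfactory receptor genes, since RefSeq windows (GRCm38.p6, 250 bases before to 50 after a start site, the first listed per gene) were matched by symbol for enough of their members. A window was found for 81.7% of the ribosomal protein genes and 83.6% of the olfactory receptor genes. The letters AGGAAG and CGGAAG, cores bound by ETS factors, the family of the endothelial regulators Ets1 and Fli1, were searched on both strands. The motifs differ in their first letter alone and can overlap each other by their ends. At least 1 match lay in 83.7% of the ribosomal windows and 26.2% of the olfactory ones, against 46.4% of all 27025 windows of the table. The observed over expected CpG ratio had a median of 0.857 in ribosomal windows, 0.106 in olfactory windows and 0.389 in all. Over the 9032 detected genes, the silent genes and the pan-endothelial list only 74.2%, 66.4% and 51.6% had a window, so such a comparison is void for them. The windows of the brightest gene Rpl23 (chr11:97782390-97782689, minus strand), of the brightest pan-endothelial gene Egfl7 (chr2:26580833-26581132, plus strand) and of the silent olfactory receptor Olfr1 (chr11:73399446-73399745, minus strand; chosen as the first silent one by name) are shown 5′ to 3′ along the gene, with matches to the motifs on either strand in capitals.
Rpl23: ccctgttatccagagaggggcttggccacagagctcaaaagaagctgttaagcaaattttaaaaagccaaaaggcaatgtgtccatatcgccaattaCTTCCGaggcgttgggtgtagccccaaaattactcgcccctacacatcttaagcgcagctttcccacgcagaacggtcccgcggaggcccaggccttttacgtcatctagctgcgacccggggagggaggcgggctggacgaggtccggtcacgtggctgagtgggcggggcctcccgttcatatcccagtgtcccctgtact
Egfl7: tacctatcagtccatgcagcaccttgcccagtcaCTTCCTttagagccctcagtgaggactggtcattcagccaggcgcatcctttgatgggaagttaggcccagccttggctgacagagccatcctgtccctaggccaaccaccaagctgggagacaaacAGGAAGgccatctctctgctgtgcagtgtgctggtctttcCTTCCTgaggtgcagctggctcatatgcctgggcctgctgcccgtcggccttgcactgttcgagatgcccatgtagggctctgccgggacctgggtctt
Olfr1: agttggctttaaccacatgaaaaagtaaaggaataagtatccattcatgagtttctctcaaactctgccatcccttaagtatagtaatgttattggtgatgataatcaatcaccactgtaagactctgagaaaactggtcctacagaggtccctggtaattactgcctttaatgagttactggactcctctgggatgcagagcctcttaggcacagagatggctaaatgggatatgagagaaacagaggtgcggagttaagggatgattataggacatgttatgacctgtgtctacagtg
Rpl23 held 1 match and Egfl7 held 3, while Olfr1 held 0. The windows of the endothelial genes Cldn5, Kdr and Tek, not shown, also held 0, so Egfl7 does not stand for endothelial genes here. A match is a run of letters and was not tested as a binding site.

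Of the pan-endothelial list, 28 of 31 genes were detected on all 5 arrays (90.3%, against 41.2% of all genes). Their median level was 8.28, against 5.92 over all genes detected on all 5. Besides Egfl7, Cldn5 and the 4 markers, the brightest were Robo4, a receptor that stabilises vessels (10.23 ± 0.21), the junction protein Esam (9.75 ± 0.12) and Lmo2, a transcriptional partner of Tal1 (9.55 ± 0.15). Its 3 members outside were S1pr1, the sphingosine receptor, and Erg, an ETS factor, detected on 2 and 3 arrays, and Cd34, a surface sialomucin. Cd34 was silent, with levels of 4.11, 4.11 and 4.30 in Evi-WT and 4.11 and 4.33 in Rspo3-WT on its 1 probe.

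**Figure D2:**
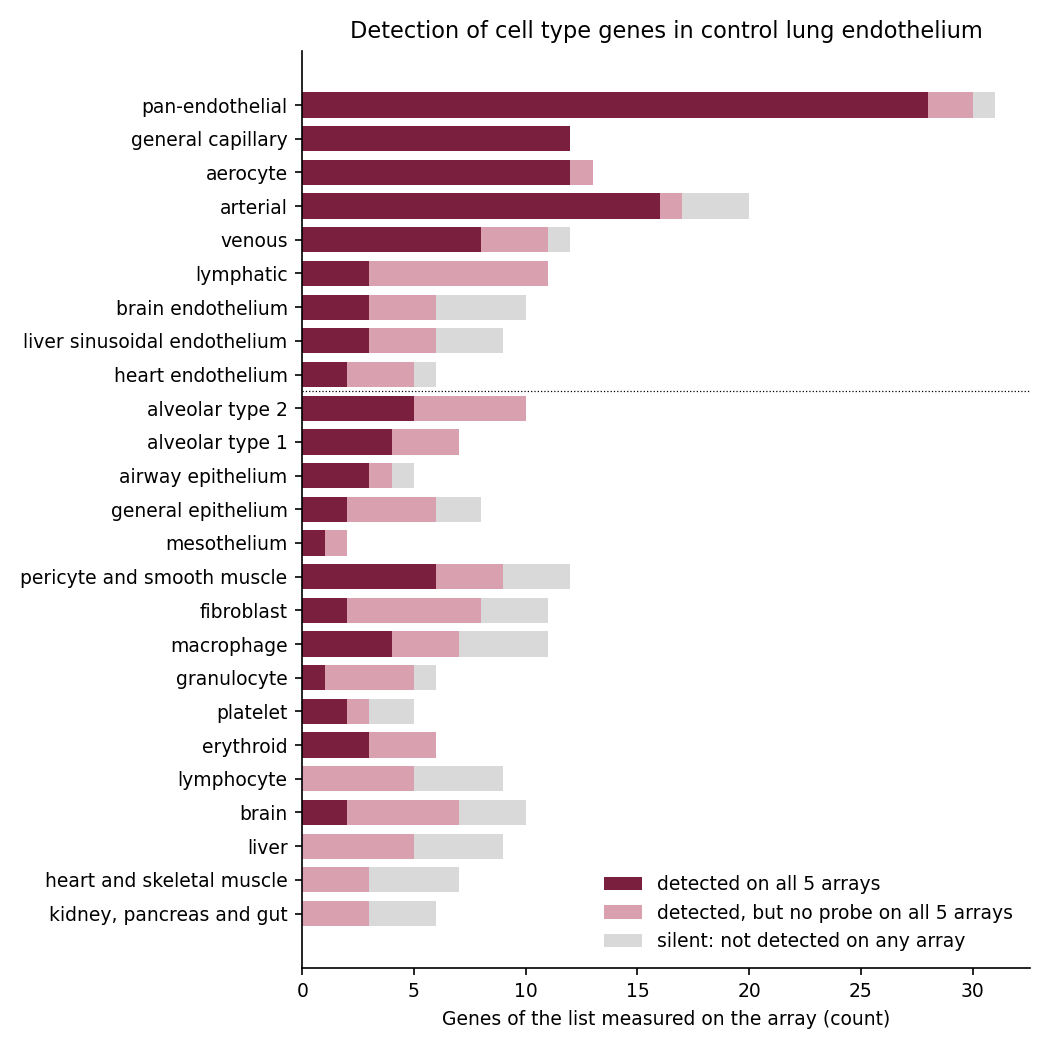
Number of measured genes (x axis) of each cell type list that were detected on all 5 control arrays (dark), detected but by no probe on all 5 (pale) or silent (grey), with endothelial lists above the dotted line and other cell types below it. All 12 general capillary genes and 12 of 13 aerocyte genes were detected on all 5, against 3 of 11 lymphatic genes and none of 9 lymphocyte genes. Over all genes the share was 41.2%.

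Genes of both lung capillary cell kinds were present. All 12 general capillary genes were detected on all 5 arrays, against 41.2% of all genes, with a median of 8.60. Tmem100, a target of BMP signalling in endothelium, had 9.75, 9.90 and 9.67 in Evi-WT and 9.54 and 9.58 in Rspo3-WT. The apelin receptor Aplnr had 9.73, 9.53 and 9.75 in Evi-WT and 9.52 and 9.42 in Rspo3-WT, without overlap and without passing the test. Kit, the stem cell factor receptor, averaged 9.39 ± 0.18 and Cd93, a C-type lectin of endothelium, 9.21 ± 0.08.

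The aerocyte list had 12 of 13 genes detected on all 5 arrays (92.3%, against 41.2% of all genes), with a median of 7.90. Emp2, a membrane protein of alveolar surfaces, had 10.39, 10.52 and 10.02 in Evi-WT and 10.11 and 10.39 in Rspo3-WT. Ednrb, the endothelin B receptor, had 9.63, 9.96 and 9.03 in Evi-WT and 9.52 and 9.95 in Rspo3-WT. Car4, the carbonic anhydrase of capillary surfaces, had 8.37, 8.32 and 7.62 in Evi-WT and 8.21 and 8.43 in Rspo3-WT. In each of these 3 genes Evi-WT replicate 3 was the lowest array, and the same array was also the lowest in Chst1, a sulfotransferase (8.98, 9.01 and 8.28 in Evi-WT, 8.74 and 9.25 in Rspo3-WT). Of the members detected on all 5 arrays, only Cyp4b1 and Kdr had another array lowest. Cyp4b1 had 8.14, 8.42 and 8.24 in Evi-WT and 8.24 and 8.48 in Rspo3-WT. Summed over the list on the linear scale, aerocyte levels came to 4454, 4905 and 3252 in Evi-WT and 4197 and 5123 in Rspo3-WT, against 5201, 5217 and 5371 in Evi-WT and 5134 and 4866 in Rspo3-WT for the general capillary list. In bulk RNA fewer cells of a kind and less RNA per cell cannot be told apart.

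Of the arterial list 16 of 20 genes were detected on all 5 arrays (80%, median 7.35), and of the venous list 8 of 12 (66.7%, median 5.66). Of all genes 41.2% were. The semaphorin and VEGF co-receptor Nrp1 averaged 10.09 ± 0.14. Hey1, a transcription factor induced by Notch in arteries, had 9.40, 9.35 and 9.91 in Evi-WT and 9.41 and 9.36 in Rspo3-WT, with Evi-WT replicate 3 above the other 4. The gap-junction protein Gja5 averaged 9.11 ± 0.33, the transcription factor Sox17 9.04 ± 0.19 and the chemokine Cxcl12 8.58 ± 0.29. The arterial members Fbln5, Dkk2 and Unc5b were silent.

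Among venous genes Ephb4, the ephrin receptor of veins, was even at 9.20, 9.27 and 9.05 in Evi-WT and 9.27 and 9.05 in Rspo3-WT. Von Willebrand factor (Vwf), a clotting protein of larger vessels, had the largest SD of the list's members detected on all 5 arrays, with 9.04, 7.54 and 8.53 in Evi-WT and 7.60 and 8.19 in Rspo3-WT. Nr2f2, the venous identity factor, averaged 6.00 ± 0.41 and Prss23 5.32 ± 0.24, and Car8 was silent.

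Of the lymphatic, brain, liver sinusoidal and heart endothelial lists 27.3%, 30%, 33.3% and 33.3% were detected on all 5 arrays, against 41.2% of all genes. In lists of 6 to 11 genes that gap is too small to be read as a trait of a list. Of 11 lymphatic genes 3 were detected on all 5 arrays and 0 were silent, against 24.4% of all genes. The 3 were the receptor Flt4 (7.79 ± 0.18), the hyaluronan receptor Lyve1 (7.77 ± 0.27) and Itga9 (4.96 ± 0.38), while Prox1, the master factor of lymphatic identity, was detected on 4 arrays. Of 10 brain endothelial genes 3 were, led by the junction protein Ocln (6.71 ± 0.23) and the glucose carrier Slc2a1 (6.24 ± 0.23), and the transporters Abcb1a, Slco1c1, Slc16a1 and Mfsd2a were silent. Of 9 liver sinusoidal genes 3 were, with the scavenger receptor Stab1 at 7.95 ± 0.09, while Dnase1l3, Gata4 and Stab2 were silent. Of 6 heart endothelial genes 2 were, Aqp1 and the fatty acid carrier Cd36 (6.51 ± 0.28), and the fatty acid binding protein Fabp4 was silent.

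**Figure D3:**
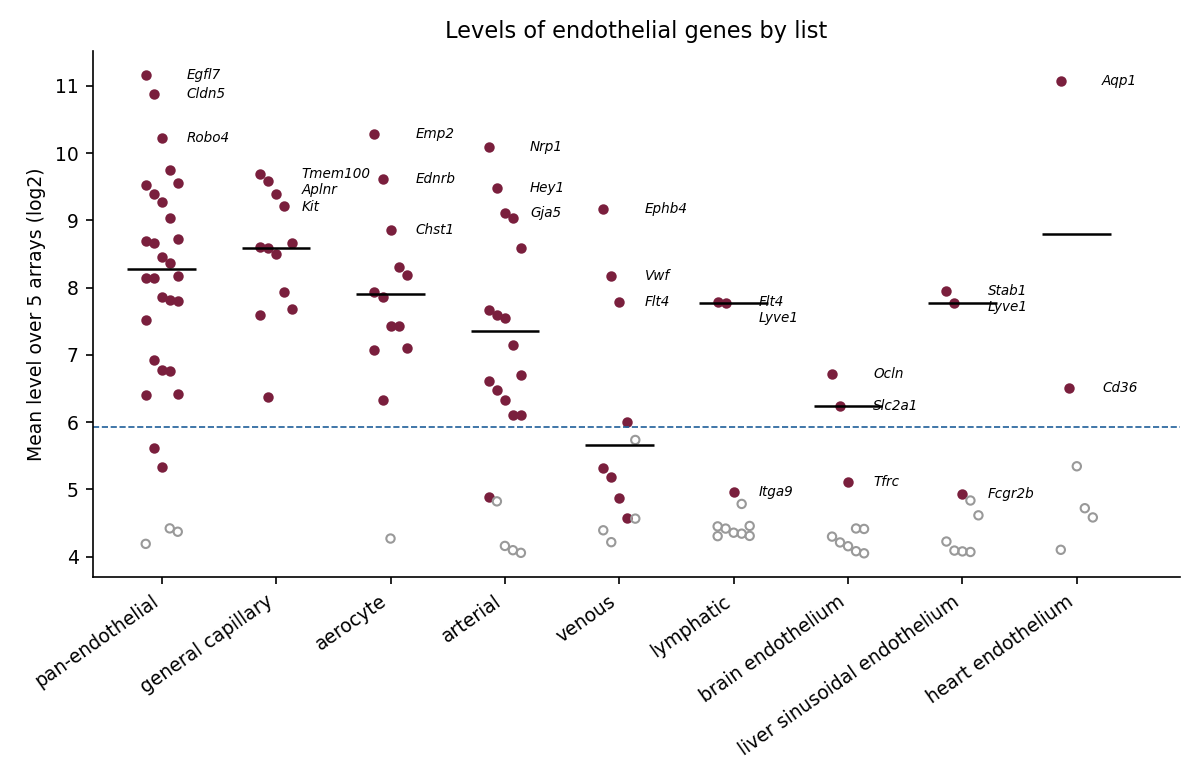
Mean level over the 5 control arrays (log2, y axis) of each measured gene of the endothelial lists, filled where detected on all 5 arrays and open otherwise, with the 3 brightest of each list named. Black bars are the list's median over filled points (8.28 for the pan-endothelial list) and the dashed line is the median over all genes detected on all 5 arrays, 5.92.

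Transcription factors of the endothelium gave 29 of 42 genes detected on all 5 arrays (69%, against 41.2% of all genes), with a median of 7.63. After Epas1 came Elk3, an ETS repressor, with 9.65, 9.71 and 9.82 in Evi-WT and 9.62 and 9.82 in Rspo3-WT, Lmo2, Ets1 (9.49 ± 0.29) and Hey1. Etv2, which specifies endothelium in the embryo, was silent, and so was Rbpj, the DNA-binding partner of Notch, on all 3 of its probes. Of the Hox genes, which mark position along the body, 12 of 38 were detected on all 5 arrays (31.6%, against 41.2% of all genes). Hoxa5, known for its role in lung development, had 9.03, 9.15 and 9.41 in Evi-WT and 9.26 and 9.13 in Rspo3-WT, and Hoxb5 had 7.61, 7.48 and 7.54 in Evi-WT and 8.0 and 8.32 in Rspo3-WT. Silent Hox genes numbered 10 (26.3%, near the 24.4% of all genes). They came from anterior groups (Hoxb2), middle groups (Hoxc4, Hoxc5, Hoxa6, Hoxb8) and posterior groups (Hoxc10, Hoxa11, Hoxd11, Hoxd12, Hoxb13). The posterior genes Hoxa13 (5.25 ± 0.13) and Hoxd13 (4.74 ± 0.06) were detected on all 5 arrays.

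Surface receptors differed widely by family in how many members were detected on all 5 arrays, beside 41.2% of all genes. The VEGF and angiopoietin receptors stood at 6 of 7 with a median of 8.16. Flt1, the decoy VEGF receptor, averaged 8.46 ± 0.19. Tie1, the partner of Tek, had 7.31, 7.45 and 7.58 in Evi-WT and 8.27 and 8.37 in Rspo3-WT, a pair of ranges that did not overlap, with no pass in the test.

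The receptors for BMP and transforming growth factor beta (TGF-beta) gave 10 of 14 (median 7.32). Bmpr2, the type II receptor mutated in heritable pulmonary hypertension in people, had 8.59, 8.46 and 8.71 in Evi-WT and 9.0 and 8.69 in Rspo3-WT. Acvrl1, the endothelial type I receptor ALK1, had 8.36, 8.67 and 8.15 in Evi-WT and 8.30 and 8.57 in Rspo3-WT. Acvr1b averaged 8.64 ± 0.35, Tgfbr2 7.64 ± 0.24 and Acvr2b 7.63 ± 0.21, while Bmpr1a, Acvr2a and Acvr1c were silent. In the Notch list 6 of 9 were detected on all 5 and none was silent. Notch4, the endothelial Notch receptor, averaged 9.30 ± 0.19 and the ligand Dll4 of sprouting cells 7.55 ± 0.13.

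G-protein-coupled receptors of vessels gave 20 of 31 (median 6.77). Besides Ednrb and Aplnr, the lysophosphatidic acid receptor Lpar4 averaged 9.48 ± 0.20, the adhesion receptor Adgrf5 9.47 ± 0.27 and Calcrl, the adrenomedullin receptor, 8.73 ± 0.08. Agtr2, Hrh1 and F2rl1 were silent. Of the other receptor tyrosine kinases 9 of 24 were detected on all 5, led by Kit and by the fibroblast growth factor receptor Fgfr2 (8.58 ± 0.08), and Ret, Erbb3, Erbb4, Ddr2, Fgfr4 and Pdgfrb were silent.

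Guidance receptors and integrins are set here beside the 41.2% of all genes detected on all 5 arrays. Of 14 Eph receptors 4 were detected on all 5 arrays, Ephb4 first, and Ephb2, Epha4, Epha8 and Epha10 were silent. Of 19 plexins, Robo and netrin receptors 9 were, led by Robo4 and by Plxnd1, a semaphorin receptor of vessels (9.45, 9.44 and 9.11 in Evi-WT, 8.91 and 8.95 in Rspo3-WT). Of 8 ephrins 3 were, led by Efnb1 (6.90 ± 0.33) and the arterial ligand Efnb2 (6.48 ± 0.25), and Efna2 was silent. Of 26 integrins 13 were, with the common subunit Itgb1 at 9.28 ± 0.27 and the collagen-binding subunit Itga2 at 8.29 ± 0.22, while Itgb3, Itga8 and Itgal were silent.

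Adhesion molecules for leukocytes gave 11 of 18 (61.1%, against 41.2% of all genes, median 7.38). After Esam and Pecam1 came Icam2 at 9.39 ± 0.39 and Mcam at 8.87 ± 0.26. Madcam1 and Jam3 were silent. Scavenger, lipid and coagulation receptors gave 8 of 17 (47.1%, near the 41.2% of all genes). Thrombomodulin (Thbd), the anticoagulant receptor of endothelium, had 9.21, 9.31 and 8.99 in Evi-WT and 9.03 and 9.14 in Rspo3-WT. Gpihbp1, which carries lipoprotein lipase across capillaries, averaged 7.94 ± 0.39, and Procr, Lrp1, Marco and Stab2 were silent.

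**Figure D4:**
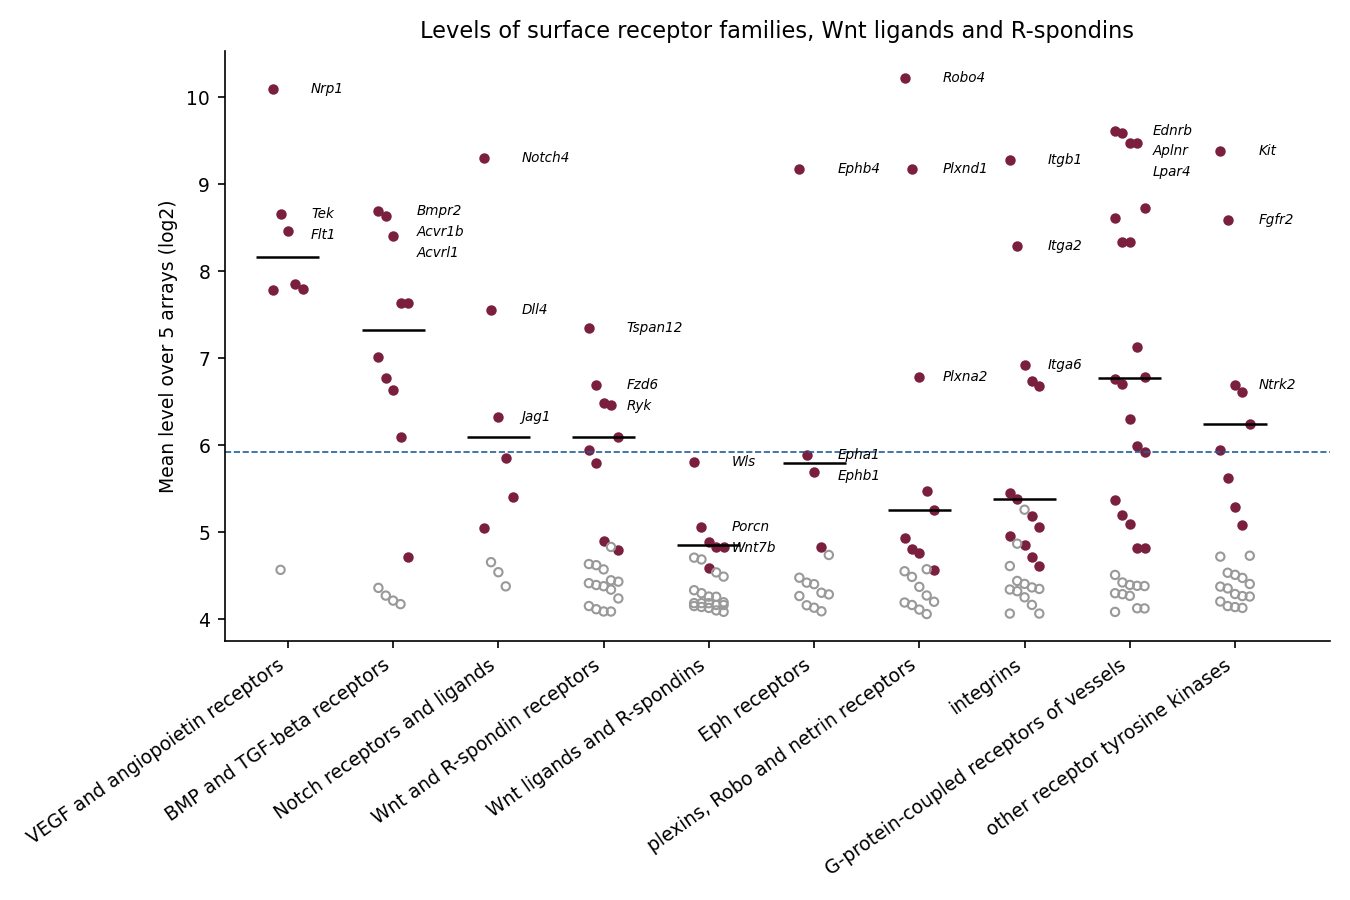
Mean level over the 5 control arrays (log2, y axis) of each measured surface receptor gene by family, and of Wnt ligands and R-spondins, filled where detected on all 5 arrays and open otherwise, with black bars at the median of filled points. The VEGF and angiopoietin family has its median at 8.16 and the Wnt ligands and R-spondins at 4.86, beside 5.92 (dashed) for all genes detected on all 5 arrays.

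In the Wnt system, which the 2 floxed genes belong to, receptors were detected at a share near that of all genes, and ligands at a lower one. Of 24 Wnt and R-spondin receptors 9 were detected on all 5 arrays (37.5%, against 41.2% of all genes), with a median of 6.10. Tspan12, a co-receptor that aids the Norrin receptor Fzd4, had 7.35, 7.38 and 7.26 in Evi-WT and 7.06 and 7.71 in Rspo3-WT. The frizzled receptor Fzd6 averaged 6.69 ± 0.25 and Fzd4 itself 6.10 ± 0.55, while Ryk, another Wnt receptor, averaged 6.48 ± 0.15 and Adgra2, which acts with Reck in Wnt7 reception, 6.46 ± 0.26. The R-spondin receptor Lgr4, the ubiquitin ligase Rnf43, Fzd2, Ror2 and Ptk7 were silent (20.8%, against 24.4% of all genes).

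Of 25 Wnt ligands, R-spondins and their secretion factors 6 were detected on all 5 arrays (24%, against 41.2% of all genes), with a median of 4.86. Silent members numbered 11 (44%, against 24.4% of all genes). Wls had 5.77, 6.22 and 5.70 in Evi-WT and 5.54 and 5.77 in Rspo3-WT. Rspo3 was detected on 1 of the 5 arrays, with levels of 4.12, 4.29 and 4.54 in Evi-WT and 4.37 and 4.17 in Rspo3-WT, so no baseline level above background is given for it here. Porcn, the enzyme that adds lipid to Wnts, averaged 5.06 ± 0.25, Wnt7b 4.89 ± 0.26, Wnt16 4.83 ± 0.06 and Wnt3a 4.82 ± 0.22. Wnt1, Wnt2, Wnt3, Wnt7a, Wnt8b, Wnt9a, Wnt9b, Wnt10a, Wnt10b, Wnt11 and Rspo2 were silent.

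Among other secreted factors 25 of 41 were detected on all 5 arrays (61%, against 41.2% of all genes, median 6.61). Sema3f, a guidance signal that acts through neuropilins, had 9.89, 10.09 and 9.90 in Evi-WT and 9.74 and 9.90 in Rspo3-WT. Pdgfb, which recruits pericytes, averaged 8.63 ± 0.17 and apelin (Apln) 7.94 ± 0.40. Pdgfd, Pgf, Adm, Tgfb2, Tgfb3, Edn3, Vegfd, Nppc and Bmp2 were silent.

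Of the basement membrane genes 18 of 24 were detected on all 5 arrays (75%, against 41.2% of all genes, median 7.26). Sparc, a matrix-binding protein, was nearly constant at 10.76, 10.69 and 10.76 in Evi-WT and 10.72 and 10.66 in Rspo3-WT. The collagen IV chain genes Col4a1 and Col4a2 averaged 10.33 ± 0.14 and 9.17 ± 0.24, the proteoglycan Agrn 9.73 ± 0.09 and the proteoglycan Hspg2 8.32 ± 0.29. The laminin chain Lamb3, known from epithelium, was silent.

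Genes of dividing cells were detected, with 18 of 27 cell cycle genes on all 5 arrays (66.7%, against 41.2% of all genes, median 6.65). Mki67, a protein of proliferating nuclei, had 8.83, 8.42 and 8.07 in Evi-WT and 8.71 and 8.44 in Rspo3-WT, and the replication helicase subunits Mcm5, Mcm4 and Mcm6 averaged 8.18 ± 0.22, 8.16 ± 0.34 and 7.66 ± 0.37. Rrm1, a subunit of the enzyme that makes deoxynucleotides, averaged 7.84 ± 0.29. Pcna, Ccnb2 and Ube2c, which dividing cells use too, were silent.

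The imprinted growth genes, known for high levels in perinatal organs, gave 9 of 12 on all 5 arrays (75%, against 41.2% of all genes, median 6.94). Peg3 averaged 8.98 ± 0.25, Grb10 8.55 ± 0.09 and Mest 7.86 ± 0.19. H19, a non-coding RNA, had 8.10, 8.04 and 8.43 in Evi-WT and 9.26 and 8.92 in Rspo3-WT, without overlap and without passing the test. Cdkn1c, a cell cycle inhibitor, averaged 6.94 ± 0.46.

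Immediate-early and heat-shock genes, which respond within minutes to handling and stress, gave 17 of 19 on all 5 arrays (89.5%, against 41.2% of all genes, median 6.87). The phosphatase gene Dusp1 had 10.54, 10.66 and 10.45 in Evi-WT and 10.29 and 10.34 in Rspo3-WT. Egr1 had 10.52, 10.19 and 9.81 in Evi-WT and 9.45 and 9.60 in Rspo3-WT. Ier3 averaged 10.05 ± 0.23, the RNA-decay factor Zfp36 9.51 ± 0.23 and the chaperone partner Dnajb1 9.35 ± 0.28. Hspa1a, an inducible chaperone, was among the most variable genes, with 7.50, 5.77 and 7.69 in Evi-WT and 5.06 and 5.19 in Rspo3-WT. On this list 15 of 19 tested members were higher in Evi-WT, with a median difference of 0.29, against 0.02 over all 14336 genes tested. With limma 6 of the 19 had an unadjusted p below 0.05, all of them higher, against 9.26% of all genes in either direction, and 0 passed after adjustment.

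Interferon response genes gave 7 of 15 on all 5 arrays (46.7%, near the 41.2% of all genes, median 5.76). Irf9 averaged 7.06 ± 0.41, Oasl2 7.05 ± 0.48, Stat2 6.37 ± 0.26, Ifit3 5.76 ± 0.46 and Rsad2 5.46 ± 0.53. Mx1, Isg15 and Ifit1 were silent. All 10 tested members were higher in Evi-WT, with a median difference of 0.46, against 0.02 over all genes. With limma 5 of the 10 had an unadjusted p below 0.05, against 9.26% of all genes, and 0 passed after adjustment.

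Genes of other cell types were detected to a varying extent, beside 41.2% of all genes detected on all 5 arrays. The macrophage (36.4%), platelet (40%), pericyte and smooth muscle (50%) and erythroid (50%) shares were near that of all genes. Of 9 lymphocyte, 9 liver, 7 heart and skeletal muscle, and 6 kidney, pancreas and gut genes none was detected on all 5 arrays. Of 10 brain genes 2 were, Rbfox3 (5.10 ± 0.24) and Mbp (4.87 ± 0.26). Of 11 macrophage genes 4 were, with Lyz2 at 5.67 ± 0.40, Cd68 at 5.21 ± 0.62 and the receptor Csf1r at 5.08 ± 0.14, and C1qa, C1qc, Fcgr1 and Marco were silent. Of 11 fibroblast genes 2 were, Mfap4 (5.18 ± 0.34) and Col1a2 (4.97 ± 0.18), and Tcf21 was silent. Of 12 pericyte and smooth muscle genes 6 were, led by Cspg4 (6.35 ± 0.29) and Rgs5 (6.19 ± 0.25), while the pericyte receptor Pdgfrb and the channel Kcnj8 were silent. Of 5 platelet genes 2 were, with Gp9 at 6.54 ± 0.34, and Pf4 and Ppbp were silent. Of 6 erythroid genes 3 were, the bright globins Hbb-b1 and Hba-a1 described above and Alas2 (5.46 ± 0.42). The median of these 3, 10.00, is the level of Hba-a1 itself. The mean over all 6 measured erythroid genes was 6.49, 7.06 and 7.04 in Evi-WT and 6.61 and 6.59 in Rspo3-WT. Over all 31 pan-endothelial genes it was 7.88, 7.87 and 7.80 in Evi-WT and 7.87 and 7.99 in Rspo3-WT.

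Epithelial transcripts were uneven, and the counts of their lists stand beside the same 41.2% of all genes. Scgb1a1, the club cell secretory protein of airways, had 8.22, 8.46 and 7.73 in Evi-WT and 7.67 and 5.01 in Rspo3-WT, so that Rspo3-WT replicate 2 stood far below the other 4. The airway list summed on the linear scale to 426, 535 and 346 in Evi-WT and 398 and 120 in Rspo3-WT, and 3 of its 5 genes were detected on all 5 arrays. Of 10 alveolar type 2 genes 5 were detected on all 5 arrays and none was silent. The surfactant protein Sftpd had 4.74, 5.45 and 6.47 in Evi-WT and 6.98 and 5.15 in Rspo3-WT, and Lyz1, a lysozyme, 6.03, 6.91 and 7.43 in Evi-WT and 8.0 and 7.36 in Rspo3-WT. The type 2 list summed to 417, 650 and 738 in Evi-WT and 980 and 635 in Rspo3-WT. Of 7 alveolar type 1 genes 4 were detected on all 5 arrays, with Clic5 at 6.65 ± 0.17 and Hopx at 6.34 ± 0.38, and of 8 general epithelial genes 2 were, with E-cadherin (Cdh1) at 5.83 ± 0.12, while the keratins Krt18 and Krt19 were silent. The part of such cells in any level given here was not tested.

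Silent genes were spread very unevenly over gene families (symbols with a shared stem, at least 20 genes). Olfactory receptors, the largest family, had 496 of 1088 genes silent (45.6%) and 83 detected on all 5 arrays (7.63%). The stems with a larger silent share were Tas (taste receptors, 65.7%), Ugt (glucuronosyl transferases, 52.4%), Krtap (keratin-associated proteins, 51.3%), Fbxw (50%), Defb (beta-defensins, 47.5%), Vmn (vomeronasal receptors, 47.1%) and Myo (45.8%), against 24.4% of all genes. At the other end stood the mitochondrial ribosomal proteins of the Mrps stem, with 85.7% detected on all 5 arrays, and the vesicle-sorting Vps genes, with 85.3%. No gene of the Snx (sorting nexin) stem was silent, of 30. The margin of the detection rule was thin: the highest detection p over the 5 arrays was 0.0499 for Ubqln2, just inside, and 0.05001 for Nr5a2, just outside.

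Most detected genes differed little between the 5 arrays, with a median SD of 0.25 and a 90th percentile of 0.42. That SD pools the 2 lines. The gene with the largest SD was Erdr1, with 9.58, 9.07 and 8.80 in Evi-WT and 7.34 and 4.70 in Rspo3-WT. It was followed by Scgb1a1, Hspa1a, Neurl, Polg2, Xlr4a, Matn4, the histone genes H2ac11 and H2bc15, and Sftpd, with SDs of 0.93 to 1.39. Xlr4a, an X-linked gene, had 5.66, 6.91 and 7.21 in Evi-WT and 5.55 and 7.83 in Rspo3-WT, and Matn4, a matrix protein, 4.61, 5.25 and 6.02 in Evi-WT and 7.24 and 6.17 in Rspo3-WT.

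The sex-linked genes split the arrays across the lines. Xist, the RNA that silences an X chromosome in females, had 8.51, 4.67 and 4.96 in Evi-WT and 4.25 and 8.41 in Rspo3-WT. The Y-linked gene Eif2s3y had 4.23, 6.77 and 6.58 in Evi-WT and 5.99 and 4.21 in Rspo3-WT. Evi-WT replicate 1 and Rspo3-WT replicate 2 were therefore high in Xist and low in Eif2s3y, so that each line held 1 such array. Kdm5d was silent.

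The question whether the controls of the 2 lines share 1 baseline was put to a test across 14336 genes with a probe detected on at least 2 of the 5 arrays. With limma and Benjamini-Hochberg adjustment 9 genes (0.0628%) had an adjusted p below 0.05, 4 higher (0.0279%) and 5 lower (0.0349%) in Evi-WT, and an unadjusted p below 0.05 was reached by 624 higher and 704 lower (9.26%). Nothing in the labels says that replicates came from separate animals, so these p-values measure only how the 5 samples spread. The median standard error of a difference was 0.22 log2 units. The share of probes detected also differed between the lines, and its part in these differences was not tested.

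**Figure D5:**
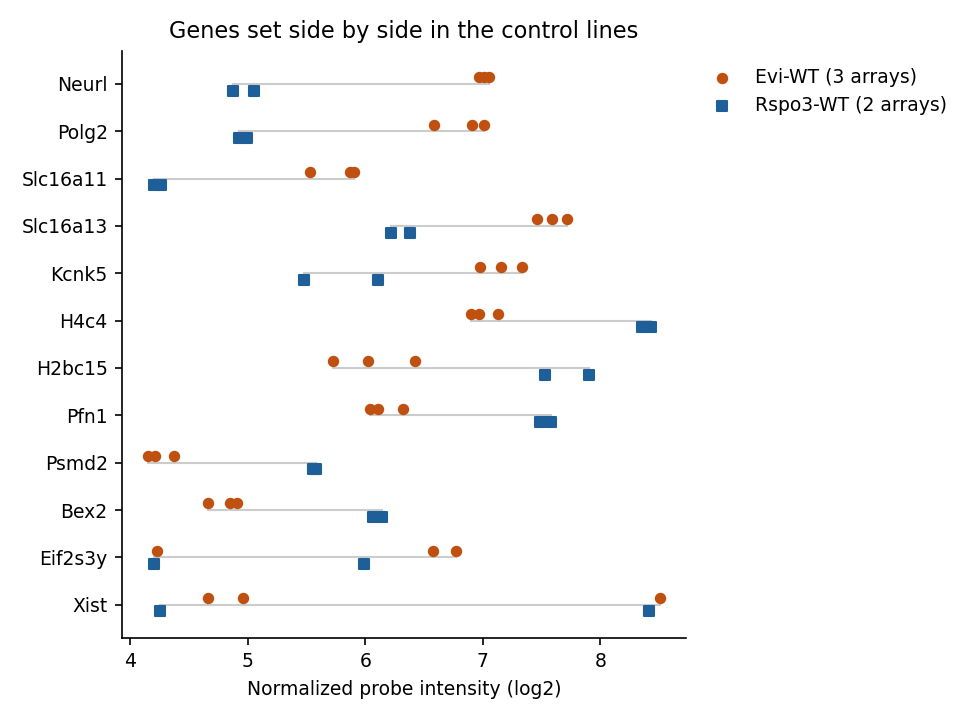
Levels (log2 normalized probe intensity, x axis) on each Evi-WT array (circles, 3) and Rspo3-WT array (squares, 2) of the 9 genes that passed the test, of Kcnk5, and of the sex-linked Eif2s3y and Xist, with a grey line from the lowest to the highest array. The lines do not overlap in the first 10 genes, which were picked by their p-value in this comparison, and do in the last 2. Of all genes tested 25.9% do not overlap.

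Higher in Evi-WT was first the gene named Neurl by the platform, with 6.97, 7.01 and 7.05 in Evi-WT and 4.87 and 5.05 in Rspo3-WT, a difference of 2.05 ± 0.20 (SE, as for each difference below) with an adjusted p of 0.00263 by limma. Polg2, the accessory subunit of the mitochondrial DNA polymerase, had 7.01, 6.59 and 6.91 in Evi-WT and 4.92 and 4.99 in Rspo3-WT (difference 1.88 ± 0.21, limma adjusted p 0.00686), and its other probe differed by 1.43. The transporter gene Slc16a13 had 7.71, 7.46 and 7.59 in Evi-WT and 6.22 and 6.38 in Rspo3-WT, a 2.44-fold difference (limma adjusted p 0.0472). Slc16a11, of the same transporter family, had 5.87, 5.53 and 5.91 in Evi-WT and was not detected on either Rspo3-WT array (4.20 and 4.26). It was at least 2.76-fold higher in Evi-WT (limma adjusted p 0.0333). Such a bound sets the mean of the brighter line against the lowest detected signal of the dimmer one. Next by p came an unnamed locus known by a clone number, which is passed over here, and then the potassium channel Kcnk5, which did not pass (difference 1.36 ± 0.23, limma adjusted p 0.0779).

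Lower in Evi-WT were 2 replication-dependent histone genes among the 5. H4c4 had 7.13, 6.97 and 6.90 in Evi-WT and 8.43 and 8.36 in Rspo3-WT (difference -1.40 ± 0.20, limma adjusted p 0.0365), and H2bc15 had 6.42, 6.02 and 5.73 in Evi-WT and 7.91 and 7.53 in Rspo3-WT (difference -1.66 ± 0.24, limma adjusted p 0.0365). Over all 48 such histone genes tested, a list drawn up after values were seen, 45 were lower in Evi-WT with a median difference of -0.85, against 0.02 over all genes, and 2 passed. The cell cycle list lay the same way, with 4 of 23 tested genes higher in Evi-WT and a median difference of -0.19. With limma 4 of the 23 had an unadjusted p below 0.05, all of them lower, against 9.26% of all genes in either direction. After adjustment 0 passed. The part of cell division in the histone difference was not tested. The RNAs of these genes have no poly(A) tail.

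The other 3 were Pfn1, Psmd2 and Bex2. Pfn1, the actin-binding profilin, had 6.32, 6.11 and 6.04 in Evi-WT and 7.58 and 7.49 in Rspo3-WT (difference -1.38 ± 0.20, limma adjusted p 0.0365), while its other probe differed by -0.40. The proteasome subunit Psmd2 had 4.38, 4.15 and 4.21 in Evi-WT and 5.58 and 5.56 in Rspo3-WT (limma adjusted p 0.0395). That probe was not detected on any Evi-WT array, so it was at least 2.34-fold lower in Evi-WT. Psmd2, like Slc16a11, met the filter only through the line where it was high, and its p-value sets signal against background. Its other probe, detected on 1 Evi-WT array, differed by -0.28. Bex2 differed by -1.30 ± 0.20 (limma adjusted p 0.0444), with its other probes at -0.17 and -0.09.

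How many genes passed depended on the arrays. The count was 19 without Evi-WT replicate 1, 3 without Evi-WT replicate 2, 1 without Evi-WT replicate 3, 6 without Rspo3-WT replicate 1 and 1 without Rspo3-WT replicate 2. Neurl passed in all 13 alternative fits in which it was recomputed, with differences of 0.90 to 2.13, but not without a filter on dim probes, where 0 genes passed and 2029 had an unadjusted p below 0.05 by limma. Polg2 passed in 8 of 13, H4c4 and Pfn1 in 6, H2bc15 and Slc16a11 in 4, Slc16a13 and Psmd2 in 3 and Bex2 in 2, and each kept its direction in all 13. None of the genes on the pan-endothelial, general capillary, aerocyte, arterial, venous or lymphatic lists passed, but with 0.0628% of all genes passing that count says nothing particular of them. On the pan-endothelial list 13 of 30 tested genes were higher in Evi-WT, with a median difference of -0.01.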

How the data were processed

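RNA of the sorted cells was isolated with a PicoPure kit, amplified by NuGEN single primer isothermal amplification and labelled with biotin, per the labels' protocols. The authors deposited mean probe intensity on a linear scale, not normalized, and beside each value its detection p-value, per the file headers. The sources used here do not say how those p-values were made, and they reached 3.20e-87, so they are not ranks among control probes. The authors also deposited a table of normalized intensity of unstated method, used as an alternative after conversion to log2.

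Intensities of the 5 control arrays went through background correction and quantile normalization by neqc of limma 3.58.1 in R 4.3.3 (offset 16) and taken to log2. That step infers negative controls from the deposited p-values, and an alternative without them was run. Of 46237 probes 35784 had 1 gene symbol in the platform annotation, none several and 10453 none; symbols were updated to RefSeq names of GRCm38.p6, and 937 changed. For its baseline level a gene took its brightest probe, among those detected on all 5 arrays where it had one. For the comparison of the lines it took its brightest probe among those detected on at least 2 arrays. No pair of the 5 arrays held the same values. The lines were compared with limma (lmFit and eBayes, 2 group means, Evi-WT minus Rspo3-WT), with Benjamini-Hochberg adjustment over all genes with a probe detected on at least 2 arrays and a threshold of 0.05. Figures used Python 3.11.15 and matplotlib 3.10.9. The script was tested on simulated data.

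Named genes were the 4 endothelial markers, Rspo3 and Wls, the 25 brightest genes, the 10 with the largest SD, up to 5 of the brightest members of each list and any silent member, and for the lines those that passed, made up to 5 per direction by smallest p, with the sex-linked genes. Clone, model and locus numbers used as symbols were left out. Erg, S1pr1, Prox1, Lgr5, Rpsa, Hoxa13, Hoxd13 and Olfr1 fell outside that rule and were chosen after their values were seen. The members and lists were chosen with earlier results of these data known. Replicate numbers did not pair the arrays across lines: deviations of arrays with the same number had correlations of -0.02 and -0.01 across genes. The number of arrays limits the precision. Alternatives were the authors' normalized values, other normalizations and background corrections, other probe and filter rules, other detection thresholds, a fit to all 10 arrays, array weights, a trended robust variance, a replicate block and leaving out each array.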

Additional observations from a re-analysis of the deposited data

Results flagged for a closer look

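In each of the 241 levels and list means examined, the array farthest from the others was compared with the range of all 5, and 12 stood apart by more than Dixon's 95% critical value of 0.71 for 5 samples. Chance flags about 1 in 20 groups, and 12 of 241 is that same rate, so the number of such values is no more than chance gives.

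Evi-WT replicate 3 held 5 of the 12. Epas1 was 10.96 there, against 11.20 to 11.27 on the other 4 arrays. Hey1, the Notch target, was 9.91, against 9.35 to 9.41. The collagen IV chain Col4a2 was 8.73, against 9.23 to 9.32, and the aerocyte gene Car4 was 7.62, against 8.21 to 8.43. The Wnt receptor Ryk was 6.21, against 6.52 to 6.57.

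Rspo3-WT replicate 2 held 3. The airway gene Scgb1a1 was 5.01 there, against 7.67 to 8.46 on the other 4 arrays, and the mean of the airway epithelium list was 4.56, against 5.47 to 5.83. The pericyte proteoglycan gene Cspg4 was 6.85, against 6.15 to 6.34.

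In Evi-WT replicate 2 the germ-line helicase gene Ddx4 was 5.69, against 5.21 to 5.32, and the mean of the liver list was 4.54, against 4.25 to 4.33. Lyz2, a lysozyme of myeloid and alveolar type 2 cells, was 4.97 in Evi-WT replicate 1, against 5.77 to 5.95. Prss23, of the venous list, was 4.91 in Rspo3-WT replicate 1, against 5.35 to 5.51.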

How the results depend on the processing

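The lines comparison was the least stable result: against 9 genes that passed, 90 did with median scaling in place of quantile normalization (6 higher and 84 lower in Evi-WT, with the median of all genes at -0.11), 63 with a trended robust variance, 4 with the mean of all probes, 3 with 10 arrays normalized together, 2 among genes detected on all 5 arrays, 0 without a filter and 1 with the replicate block, and 1 to 19 when an array was left out. Normexp background correction gave 12, no background correction 7, the authors' normalized values 7, the fit to all 10 arrays 6 and array weights 11. Where the lone remaining Rspo3-WT array was tested, it is assumed to vary like the Evi-WT arrays. The difference of Eif2s3y, 0.76 in the lines comparison, was 1.61 without Rspo3-WT replicate 1 and reversed to -0.13 without Rspo3-WT replicate 2, and that of Xist, -0.29, was -2.34 without Rspo3-WT replicate 1 and reversed to 0.24 without Evi-WT replicate 2, 0.18 without Evi-WT replicate 3, 1.77 without Rspo3-WT replicate 2 and 0.26 with the replicate block. Silent genes numbered 9743 at a detection p below 0.001 and 7363 below 0.01, and 5744 to 5894 when an array was left out. Genes detected throughout numbered 6924 and 7896 at those thresholds and 9310 to 9528 with 1 array fewer. The 100 brightest genes shared 62 with the ranking by the mean of all probes, 96 to 98 when an array was left out and 99 to 100 under the other alternatives run. The median level of pan-endothelial genes, 8.28 beside 5.92 for all detected genes, was 8.49 beside 6.75 with normexp, 8.63 beside 7.17 with no background correction, 8.78 beside 7.23 in the authors' normalized values, 8.40 beside 6.03 with 10 arrays normalized together, 7.86 beside 5.77 with the mean of all probes and 8.15 over all measured members, and 8.21 to 8.40 when an array was left out. The cause of these shifts was not tested. Levels near 4 to 5 lie close to background, and small differences there were not detectable.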

Other observations

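Some genes that most cell types use were silent or nearly so on their probes. Rbpj, Bmpr1a, Lrp1 and Pcna were silent, and Rpsa, a ribosomal protein, was detected on 1 of the 5 arrays while 54 of 60 cytosolic ribosomal protein genes were detected on all 5. Of the Wnt and R-spondin receptors outside the 9 detected throughout, Lgr5 was detected on 4 arrays, with 4.82, 4.63 and 4.71 in Evi-WT and 4.36 and 4.34 in Rspo3-WT.

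RefSeq (GRCm38.p6) placed 8 of the 9 genes that passed between the lines. Of these, 4 lay on 1 chromosome, which held 8.05% of the tested genes that were placed. With limma 9.36% of the 1058 tested genes there had an unadjusted p below 0.05, near the 9.26% of all genes tested. The 4 genes were Slc16a11, Slc16a13, Pfn1 and Polg2. The first 2 are neighbours in the order of protein-coding genes there, and both were higher in Evi-WT, as was Polg2, while Pfn1 was lower. The 2 lines differ in the floxed gene and in breeding, and the sources used here do not say what else differs between them. These genes were picked by their result in the same comparison, and whether they share a cause was not tested.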
